A study of Mus musculus with 7 samples.

Results

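PV interneuron nuclei were taken from a single-nucleus RNA-Seq (snRNA-Seq) sample of mouse primary visual cortex by a gate on the transcripts of each nucleus, counted as unique molecular identifiers (UMIs). A nucleus with more than 200 UMIs was kept (the pooled viral column counted toward this cut, and without it the same 497 PV nuclei passed), and it entered the PV gate when it held at least 1 UMI of Pvalb and at least 1 of Gad1 or Gad2, with no more than 2 of Sst, 1 of Vip and 1 of Npy. The gate held 497 of 32335 kept nuclei, a share of 1.54% (exact binomial 95% interval 1.41 to 1.68%). Because these 6 genes chose the nuclei, their values are given as a description and no test was run on them.

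The snRNA-Seq sample came from male C57BL/6J mice, 6 to 10 weeks old, whose visual cortex was injected with an AAV9 library (PESCA). In this viral library each of 287 mouse gene regulatory elements (GREs) drives a reporter, and each GRE was paired with 3 barcodes on separate constructs. The paper did not detect every GRE and barcode in the packaged viral library. The snRNA-Seq sample was deposited as 10 inDrops libraries, named in 2 sets of 5. The methods describe 5 libraries from each of 2 animals without tying a library to an animal. A second assay, ATAC-Seq of open chromatin, covered the whole cortex of uninjected mice, 6 to 12 weeks old, labelled male (the protocol names both sexes), in which Pv-Cre, Sst-IRES-Cre or Vip-IRES-Cre switched on the nuclear tag SUN1-2xsfGFP-6xMYC, with 2 samples per driver. Such a tag marks every cell in which the driver was ever active, so those nuclei were chosen by driver activity. The PV nuclei of the snRNA-Seq were instead chosen by their UMI counts of the gate genes, Pvalb among them. As the driver of the PV samples was Pv-Cre, their choice was not independent of Pvalb. No mouse was shared with the snRNA-Seq.

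PV interneurons are GABA-releasing neurons of the cortex that mostly contact the soma, proximal dendrites or axon initial segment of their targets and fire long trains of brief action potentials. They arise in the medial ganglionic eminence, as SST interneurons do, and are known for Shaw-type potassium channels that repolarize the membrane quickly, for a synchronous release machinery built around synaptotagmin 2, for dense mitochondria and for the perineuronal nets that many of them carry. VIP interneurons and most NPY-rich neurogliaform cells arise in or near the caudal ganglionic eminence and use other gene programmes.

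The 10 libraries held 2457 to 3629 kept nuclei and 2480128 to 2986442 non-viral UMIs each. PV nuclei were deeper than the rest, with a median of 1247 UMIs against 692, which touches every share of nuclei with a UMI given here. Barcode names recurred between libraries for 11945 kept nuclei, 170 of them in the PV gate, and in 32 cases a PV nucleus shared its name with a PV nucleus of another library. No doublets were removed. As the libraries were 1 sample, no test between groups of nuclei was possible. Levels are summed UMIs per 10000 non-viral UMIs, and the 95% intervals cover counting error only.

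The share of PV nuclei differed between the 2 sets of libraries. In libraries 1-1 to 1-5 it was 0.997%, 0.996%, 1.24%, 1.05% and 1.31%, and in libraries 2-1 to 2-5 it was 2.04%, 2.17%, 1.91%, 1.71% and 2.52%. The sets did not overlap, at 1.12% (0.966 to 1.28%) and 2.04% (1.82 to 2.29%) of nuclei over each set. Depth moved with the set, since the median PV nucleus held 1150 UMIs in set 1 and 1324 in set 2, and its part in the share was not tested.

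**Figure D1:**
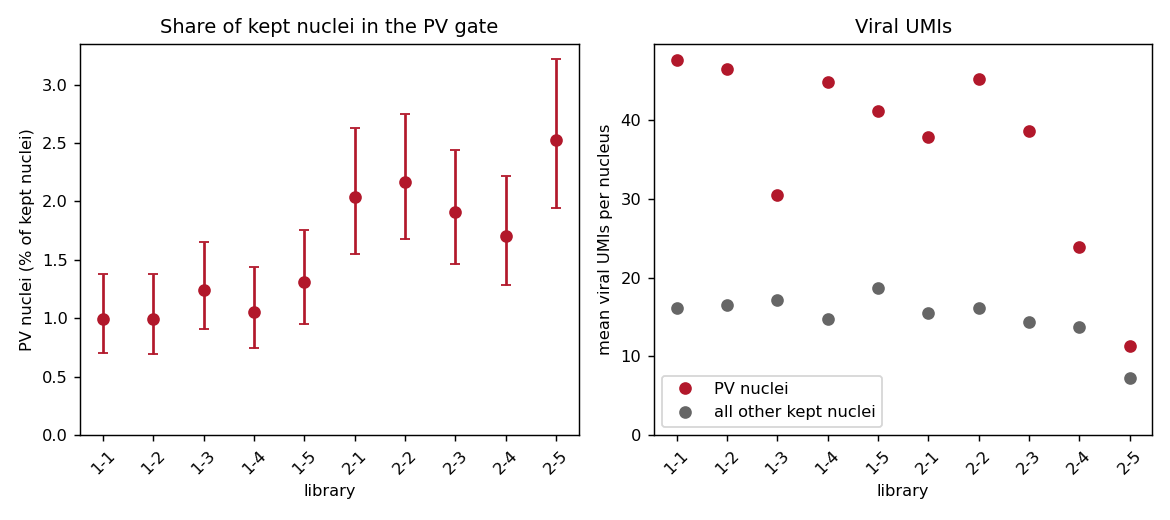
Left, share of kept nuclei in the PV gate (percent) in each of the 10 libraries, with exact binomial 95% intervals as bars. Right, mean viral UMIs per nucleus in PV nuclei and in all other kept nuclei of each library. The 5 libraries of set 2 lie above those of set 1 on the left, and on the right PV nuclei lie above the other nuclei in all 10 libraries, both groups being lowest in library 2-5.

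The gate rested on few molecules of Pvalb itself, the calcium-buffering protein parvalbumin. Of the 497 nuclei, 250 (50.3%) held a single Pvalb UMI, 123 held 2 and 124 held 3 or more, and the highest held 31. Pvalb summed to 1010 UMIs, or 15.0 per 10000, with 12.8 in the lowest library, 14.9 in the median one and 16.9 in the highest. As every nucleus of the gate holds Pvalb by the rule, this range is largely set by the gate. Gad1 (glutamate decarboxylase) was at 0 in 59 of the nuclei and Gad2 in 221, and 105 entered on a single UMI of the pair. Just outside the gate, 331 nuclei held Pvalb without Gad1 or Gad2, and 50 held Pvalb and a Gad transcript but too many of Sst (23), Npy (31) or Vip (6).

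Nuclei on either side of the Gad threshold differed in genes that the gate did not use. Among the 331 nuclei with Pvalb and no Gad transcript, Kcnc1 stood at 4.56 per 10000, Syt2 at 1.18 and Erbb4 at 1.06, and their median depth was 829 UMIs. Within the gate the same genes stood at 16.3, 5.61 and 5.88. Inside the gate, PV nuclei with 1, 2 and at least 3 Pvalb UMIs had Kcnc1 at 14.9, 17.3 and 17.5, Syt2 at 4.71, 6.16 and 6.47, and Vamp1 at 3.55, 4.48 and 6.33. Tac1, in contrast, stood at 2.22, 2.05 and 1.65, and Erbb4 at 6.21, 5.10 and 6.00. Depth differed between these 3 classes too, with medians of 1113, 1323 and 1538 UMIs, and its part was not tested. These classes are ranges of Pvalb counts, not cell types.

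The label was checked against Tac1 and Erbb4, the markers of PV interneurons that the gate did not use. Tac1, the precursor of substance P, reached 2.00 per 10000 in PV nuclei (lowest library 1.27, median 2.10, highest 3.42) and 0.200 in all other kept nuclei (0.0854 to 0.337), a ratio of 10.0 (8.23 to 12.1). Erbb4, the neuregulin receptor, reached 5.88 (3.00, 6.06 and 7.30) against 0.431 (0.360 to 0.561), a ratio of 13.6 (12.1 to 15.3). In both genes every PV library lay above every library of other nuclei. Tac1 was seen in 13.1% of PV nuclei and 0.283% of excitatory nuclei, whose median depth was 1046 UMIs, so most PV nuclei showed no Tac1 at this depth. Neither gene set PV nuclei apart from all other interneurons, since Tac1 stood at 1.89 in the NPY gate and Erbb4 at 4.79 in the VIP gate and 3.83 in the NPY gate.

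For comparison, gates of nuclei without Pvalb were set for SST (509 nuclei), VIP (307), NPY (325) and excitatory neurons (5651, with Slc17a7 and no Gad1 or Gad2). A further 4951 nuclei held Gad1 or Gad2 without Pvalb, among them the SST, VIP and NPY gates. They are a weak comparison, because 22.9% of them also held a UMI of Slc17a7, the vesicular glutamate transporter of excitatory neurons.

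Across 14706 genes with at least 50 UMIs, the genes of the gate left out, 962 (6.54%) were at least 2-fold higher in PV nuclei than in all other kept nuclei and 2983 (20.3%) at least 2-fold lower. With the added condition that the counting interval excluded 1, 739 (5.03%) were higher and 1507 (10.2%) lower. In all 10 libraries 247 of the higher genes and 1475 of the lower ones kept their direction. A library without a PV UMI of a gene counts as lower once its other nuclei hold any, so these 2 counts are not comparable. The lower genes include many with few UMIs, and 798 of the genes had none in PV nuclei. Over the genes with a UMI in PV nuclei, the median log2 ratio was -0.05. Against the other Gad nuclei, 854 genes (5.81%) were higher and 2638 (17.9%) lower, or 555 (3.77%) and 1075 (7.31%) with the interval.

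The 25 genes with the largest ratio, among those with at least 50 UMIs in PV nuclei and a ratio above 1 in each library, were led by Tmem132c, a transmembrane protein, at 20.1 (15.8 to 25.5), Cox6a2, a subunit of cytochrome c oxidase, at 19.3 (13.6 to 27.2), and Btbd11, a BTB-domain protein, at 19.2 (16.2 to 22.6). Syt2, the calcium sensor of fast transmitter release, followed at 18.2 (16.1 to 20.6), with 5.61 per 10000 in PV nuclei and 0.308 elsewhere. Eya4, Cemip, the BMP antagonist Nog, Fam150b, the GTPase gene Rnd2, the neuronal connexin gene Gjd2, Ank1 and the calcium channel subunit gene Cacna2d2 lay between 11.6 and 15.6. The remaining genes ran down to Nefh, the heavy neurofilament chain, at 7.88 (6.58 to 9.40). Not all of these genes set PV nuclei apart from SST nuclei. In the SST gate Fam150b stood at 0.806 per 10000 and Cacna2d2 at 3.58, beside 0.831 and 4.85 in PV nuclei, whereas Syt2 stood at 0.101. In each of the 25 genes all PV libraries lay above all libraries of other nuclei, which the condition on the libraries favours.

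**Figure D2:**
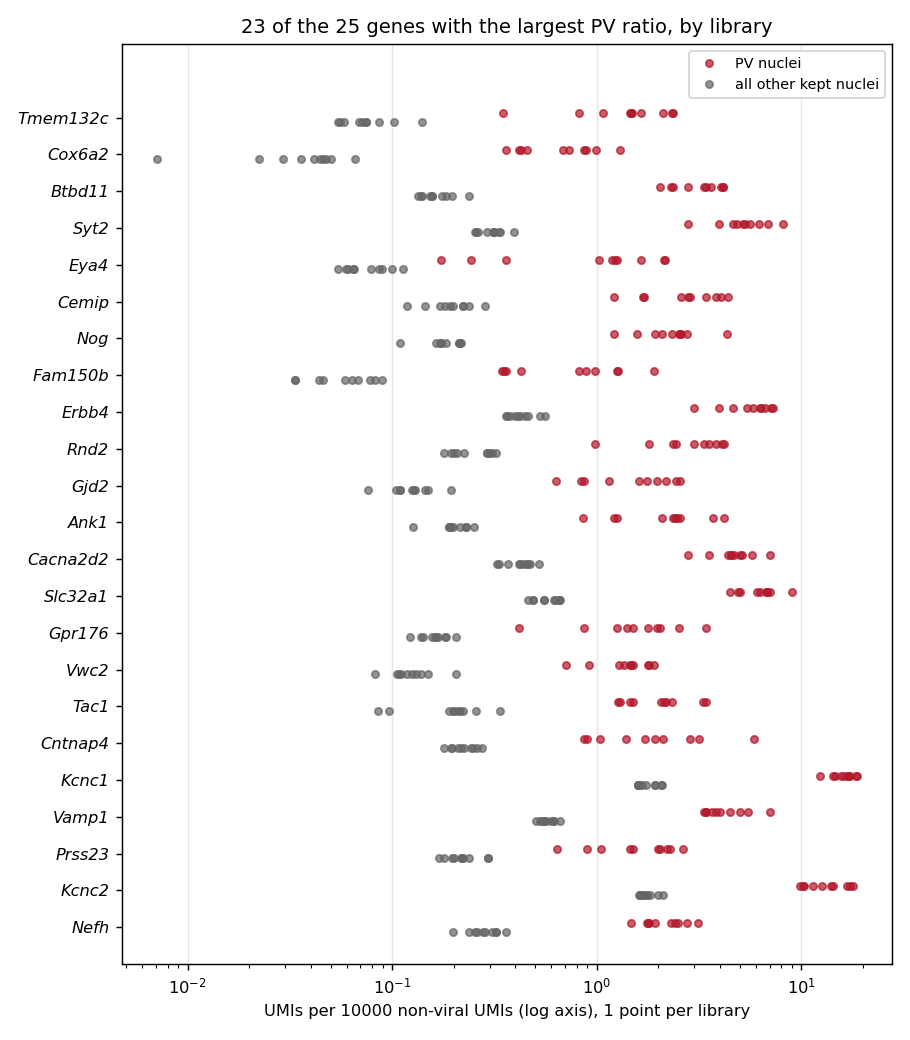
Level in UMIs per 10000 non-viral UMIs (log axis) of 23 of the 25 genes with the largest ratio of PV nuclei over all other kept nuclei, with 1 point per library for each group. PV libraries lie to the right of the other libraries in every gene shown, and Eya4 comes closest, with 0.174 in its lowest PV library and 0.113 in the highest library of other nuclei.

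Potassium channels of fast-spiking neurons were high as a group. Of 11 listed genes, 10 were at least 2-fold higher in PV nuclei than in all other nuclei, with intervals that excluded 1, and 1 was lower. Their median log2 ratio was 2.29, beside -0.05 over all genes with a UMI in PV nuclei. Kcnc1, a Shaw-type channel that lets the membrane repolarize quickly, stood at 12.4, 16.5 and 18.8 per 10000 in the lowest, median and highest PV library and at 1.59 to 2.09 in the other nuclei, a ratio of 9.11 (8.52 to 9.72). Kcnc2, its close relative, had a ratio of 7.97 (7.43 to 8.55). Kcnc4, another gene of that family, ran the other way, with 0.178 in PV nuclei and 1.15 elsewhere, a ratio of 0.155 (0.0798 to 0.271).

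The auxiliary subunit genes Kcnab1 (ratio 5.32) and Kcnab3 (4.23) and the Shaker-type channel Kcna1 (2.65) were higher too, whereas Kcna2 sat near the threshold at 2.07. Summed over the list, the level was 52.3 in PV nuclei, 27.5 in the SST gate, 22.7 in the NPY gate, 15.8 in the VIP gate and 10.9 in excitatory nuclei. After each nucleus was thinned to 300 UMIs, Kcnc1 was seen in 38.0% of 484 PV nuclei, 14.1% of SST, 16.5% of NPY, 9.09% of VIP and 3.74% of excitatory nuclei, with 13 shallower PV nuclei left out. Without thinning, Kcnc1 was seen in 74.9% of PV, 38.5% of NPY, 36.7% of SST, 25.1% of VIP and 11.4% of excitatory nuclei. For this gene the groups stood in the same order with and without thinning.

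Of 11 sodium and calcium channel genes, 4 were at least 2-fold higher, all with intervals above 1, and 2 were lower, 1 of them with its interval below 1. Over all genes 20.3% were lower, so that 2 lower members in a list of this size, here and in the lists that follow, is near the background. Cacna2d2, an auxiliary calcium channel subunit, had a ratio of 11.6 (10.2 to 13.1), while its relative Cacna2d3 had 0.207 (0.131 to 0.312). The sodium channel gene Scn1a had 2.70 (2.21 to 3.27) and Cacng2, a regulator of AMPA receptors, 2.44 (2.17 to 2.74). Scn8a at 1.63 stayed under 2-fold, though higher in 10 of 10 libraries.

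Among 9 genes of fast release and neurofilaments, 4 were at least 2-fold higher and none lower. They were Syt2, Vamp1 (8.11, 7.16 to 9.16), Cplx1 (4.62, 4.29 to 4.97) and Nefh, in which Vamp1 is a vesicle SNARE and Cplx1 a complexin that clamps it. Their general counterparts did not follow. Syt1, the synaptotagmin of most forebrain neurons, had a ratio of 0.890 (0.849 to 0.932), Snap25 of 1.08, and the light and medium neurofilament genes Nefl and Nefm of 0.589 and 0.545. Of the 4, Syt2 had the largest contrast, with 5.61 per 10000 against 0.101 in the SST gate, 0.254 in VIP, 0.122 in NPY and 0.172 in excitatory nuclei. It was seen in 43.3% of PV and 1.59% of excitatory nuclei, and in 17.4% and 0.454% after thinning.

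Of 10 genes of mitochondria and energy supply, 4 were at least 2-fold higher and none lower. Beside Cox6a2 they were the transcriptional regulators Esrrg (5.15, 4.21 to 6.26), Ppargc1a (3.99, 3.49 to 4.54) and Esrra (2.58, 1.92 to 3.41), which are known to drive mitochondrial genes. The 6 others, which encode broadly used enzymes and carriers, lay between 1.16 (Ckmt1) and 1.78 (Slc25a4). Cox6a2 rested on 51 UMIs in PV nuclei, spread over 8.45% of them.

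Of the 9 genes of the perineuronal net list, 4 were higher and 2 lower, each with an interval that excluded 1. Bcan, a brevican proteoglycan, had a ratio of 2.90 (2.44 to 3.42), the link protein genes Hapln1 and Hapln4 5.88 (4.64 to 7.39) and 3.34 (2.77 to 4.01), and Acan, the aggrecan gene, 7.58 (4.23 to 12.8) from 17 UMIs. Ncan (0.443) and Ptprz1 (0.295) lay lower. Hapln1 stood higher still in the NPY gate, at 4.80 per 10000 beside 1.28 in PV nuclei.

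Genes of GABA supply and of synapse assembly were described next. Of 5 GABA genes outside the gate, 3 were higher, among them the vesicular transporter Slc32a1 (11.3, 10.1 to 12.5) and the degrading enzyme Abat (3.36, 2.80 to 4.01). Slc32a1 stood at 6.49 in PV, 6.31 in SST, 5.73 in VIP and 5.50 in NPY nuclei, so it marked interneurons rather than PV nuclei. Of 13 genes of Erbb4 signalling and synapse adhesion, 7 were higher and 2 lower, 1 of the lower ones with an interval below 1. The higher members besides Erbb4 and Btbd11 included Cntnap4 (9.29), Nxph1 (6.71), Lgi2 (4.75) and the contactin gene Cntn5 (3.38).

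On the list of 11 glutamate receptor genes, 4 were higher and none lower, the higher ones being Grin2d (5.25, 3.35 to 7.92), Grik1 (3.28, 2.67 to 4.00), Gria1 (2.14, 1.99 to 2.30) and Gria4 (2.13, 1.89 to 2.40), while Gria2 had 0.795 (0.753 to 0.839). Grin3a, an NMDA receptor subunit gene kept on the SST list, was lower at 0.236 (0.113 to 0.435). Against the other Gad nuclei 1 of the 4, Grin2d, remained past 2-fold, and Gria1 was higher in the SST gate (20.4 per 10000) than in PV nuclei (11.7). Of 11 GABA-A receptor genes, 4 were higher and 2 lower. Gabrd, the delta subunit, had 3.29 (2.67 to 4.01), Gabrg3 3.34 (2.66 to 4.15) and Gabrb2 2.12 (1.24 to 3.41). Gabra2 (0.289, 0.204 to 0.397) and Gabrb1 (0.457, 0.371 to 0.557) were lower.

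**Figure D3:**
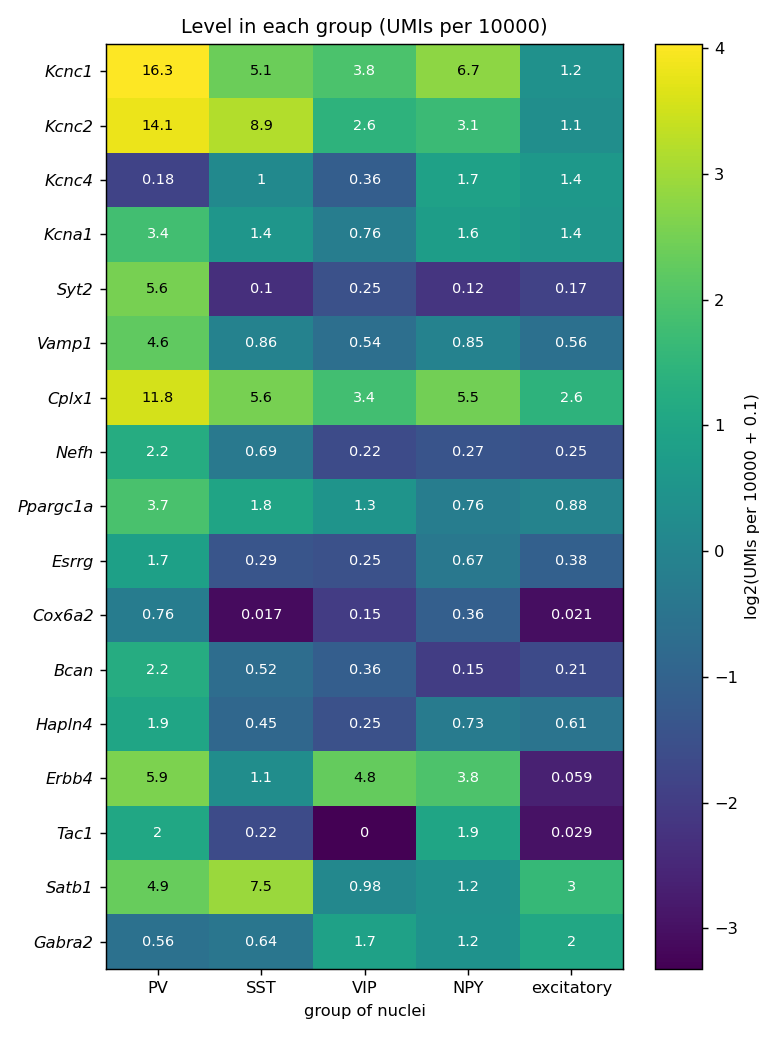
Level in UMIs per 10000 non-viral UMIs of 17 listed genes in PV, SST, VIP, NPY and excitatory nuclei, with the colour on a log2 scale after adding 0.1. Syt2, Vamp1 and Cox6a2 are highest in the PV column, whereas Kcnc4 is lowest there, Satb1 is higher in SST nuclei and Tac1 is nearly as high in NPY nuclei.

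Of 15 tested transcription factor genes of the medial ganglionic eminence lineage, 9 were at least 2-fold higher than in all other nuclei and none lower, with a median log2 ratio of 1.86. Lhx6, which specifies the lineage, had a ratio of 10.2 (6.79 to 14.8) and Sox6 of 6.63 (4.16 to 10.2). Set against the SST gate the order changed. Lhx6 stood at 0.519 per 10000 in PV and 0.739 in SST nuclei, and Satb1, a chromatin organizer, at 4.94 and 7.54, a PV to SST ratio of 0.656 (0.567 to 0.757). For Lhx6 that ratio was 0.703 (0.438 to 1.12), an interval that includes 1. Lhx6 had no UMI in the VIP gate.

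Genes known to divide PV interneurons into subtypes were sparse. Of 11 tested genes, 3 were higher, Tac1, Pthlh (4.14, 2.51 to 6.49, from 21 UMIs) and Il1rapl2 (2.60, 1.36 to 4.54, from 13 UMIs), and 2 were lower with intervals below 1, Cpne5 (0.233, 0.111 to 0.429, from 10 UMIs) and Unc5b (0.332, 0.107 to 0.778, from 5 UMIs). Against the other Gad nuclei 1 was higher and 4 lower. Vipr2 and Pth2r, which are known from chandelier cells, had 0 UMIs in PV nuclei, as did Th and Myh8. With 673788 non-viral UMIs in the gate, a count of 0 allows up to 0.0445 per 10000. No split of the PV nuclei into subtypes was made.

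Genes of other cell types were mostly low in PV nuclei. The gate needs Pvalb and a Gad transcript and caps Sst, Vip and Npy. Low values on the lists of other cell types therefore follow in part from the gate and are given as a description. Of 8 SST-list genes outside the gate, 6 were at least 2-fold lower and 1, Crhbp, was higher (4.54, 3.38 to 6.00). All 13 genes of the caudal lineage except Cnr1 (0.733) were at least 2-fold lower, 9 of them with an interval below 1, and Npas1, Htr3a and Tac2 were at 0. Of 11 excitatory genes, 10 were lower with intervals below 1, and their summed level was 4.84 in PV nuclei (3.66 to 6.80 by library) against 25.9 in the excitatory gate, which Slc17a7, a gene of this list, had defined. Slc17a7 was seen in 7.45% of PV nuclei, and in 2.27% after thinning beside 39.7% of excitatory nuclei. The 37 PV nuclei with Slc17a7 had a median of 1752 UMIs, with Kcnc1 at 7.20 and Syt2 at 1.87, below the values of the whole gate. Without these 37 nuclei the count of genes at least 2-fold higher was 1035.

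Glial and vascular lists had 5 of 6 oligodendrocyte, 5 of 7 astrocyte, 3 of 5 precursor, 6 of 6 microglial and 6 of 6 vascular genes at least 2-fold lower. Cldn5 and Vtn, which mark vessels, and the microglial P2ry12 had 0 UMIs. The exceptions were Slc4a4 at 3.05 (1.59 to 5.35) and Aldoc at 1.35 on the astrocyte list. On the oligodendrocyte list it was St18 at 1.51 (0.484 to 3.62), and on the precursor list Cspg4 at 0.698 and Vcan at 0.752. The summed levels in PV libraries ran from 0.297 to 7.38 for oligodendrocyte and from 2.87 to 10.1 for astrocyte genes, against 9.70 to 12.2 and 18.6 to 28.8 in other nuclei. Among genes with at least 2 per 10000 in the other nuclei and a ratio below 1 in each library, the 10 lowest were led by Rgs5 of pericytes at 0.0624 (0.0285 to 0.119), a log2 ratio of -4.001 from 9 UMIs, followed by Sparc, Fn1, Apoe, Igfbp5, Cd34, Ptgds, Cldn11, Atp2b4 and Mal, which reached 0.173 (0.111 to 0.257). For Rgs5 the highest PV library, 2-1, stood at 0.688 per 10000, and the log2 ratio was -5.34 without that library and -6.30 in nuclei with at least 2 Pvalb UMIs. These are not all genes of glia or vessels in these data, since Cd34 stood at 3.59 and Atp2b4 at 4.63 per 10000 in excitatory nuclei, above their levels over all other nuclei (3.46 and 3.65). Immediate early genes were low as well, with 7 of 10 activity and stress genes at least 2-fold lower, among them Arc (0.212, 0.164 to 0.270), Egr1 (0.221, 0.178 to 0.271) and Nr4a1 (0.201, 0.152 to 0.261). For Arc the level was 0.994 in PV, 1.04 in SST and 5.54 in excitatory nuclei.

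The comparison with other Gad nuclei kept several of the leading genes at the top. Among genes with at least 50 UMIs in PV nuclei and a ratio above 1 in each library, the 10 largest ratios were those of Syt2 (9.87, 8.49 to 11.5), Cemip (8.39, 6.82 to 10.3), Cox6a2 (7.97, 5.33 to 11.9), Btbd11 (7.59, 6.28 to 9.16), Nog, Prss23, Rnd2, Ank1, Vamp1 and Adssl1 (5.89, 4.16 to 8.28). Tmem132c had 7.46 (5.70 to 9.76) but was higher in 9 of 10 libraries. The lowest, among genes with at least 2 per 10000 in the other Gad nuclei, were Synpr, a vesicle protein, at 0.0513 (0.0265 to 0.0898) and Kit, a receptor tyrosine kinase, at 0.0610 (0.0315 to 0.107). Synpr stood at 0.178 per 10000 in PV, 13.0 in SST and 26.1 in VIP nuclei, and Kit at 0.178 in PV, 16.1 in VIP and 27.3 in NPY nuclei. Low Synpr thus went with PV and NPY nuclei (1.31 in the NPY gate), and low Kit with PV and SST nuclei (0.638 in the SST gate).

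Measured against each of the SST, VIP, NPY and excitatory gates, 300 of 14705 genes (2.04%, Slc17a7 left out as well) were at least 2-fold higher in PV nuclei than in all 4, and 114 (0.775%) when each interval had to lie above 1. Of those 114, 77 had at least 50 UMIs in PV nuclei. The listed genes among the 114 were 5 potassium channel genes, 4 of fast release and neurofilaments, 3 of energy supply, 2 of the perineuronal net, 2 of synapse adhesion, 1 GABA-A receptor gene and 1 gene of the astrocyte list. The other lists had none. Syt2 was 55.7-fold (25.4 to 153) higher in PV than in SST nuclei, 22.1-fold higher than in VIP, 46.1-fold higher than in NPY and 32.6-fold higher than in excitatory nuclei. Kcnc1 was 3.17-fold (2.79 to 3.61) higher than in SST nuclei, whereas Kcnc2 was 1.58-fold (1.42 to 1.76) higher and so fell short of 2-fold. Tac1, with 0 UMIs in the VIP gate, was at least 18.4-fold higher in PV than in VIP nuclei (against a floor of 3 UMIs in that gate).

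PV nuclei carried more viral transcripts than the other nuclei. Their mean was 35.6 viral UMIs and their median 15, against 15.3 and 4, a ratio of means of 2.33 that lay between 1.57 and 3.05 in the 10 libraries and was above 1 in 10 of 10. The mean over PV nuclei was 11.3 in the lowest library, 39.9 in the median one and 47.7 in the highest. In the SST gate the mean was higher, at 59.8, and it was 21.5 in NPY, 18.0 in excitatory and 17.9 in VIP nuclei. Per 1000 non-viral UMIs PV nuclei had 26.2 viral UMIs and other nuclei 17.8, a ratio of 1.48, and the part of depth in the count was not tested. Viral UMIs were seen in 93.0% of PV nuclei (90.3 to 95.1%) and 86.0% of others. They were seen also in 79.4% of 15013 barcodes with 200 or fewer UMIs, with a mean of 8.43 or 74.2 per 1000 non-viral UMIs. What those barcodes hold, and whether a viral UMI in a nucleus marks transduction, was not tested. A few nuclei weighed heavily, as 20 of the 327 nuclei in the top 1% of viral counts were PV nuclei, and without that 1% the means were 24.7 and 12.7.

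The fold of each GRE was taken as the mean in PV nuclei plus 0.01 over the mean in all other kept nuclei plus 0.01. It was at least 2 for 103 of 287 GREs (35.9%) and above 1 for 252, with a median of 1.60 and quartiles of 1.23 and 2.27. GREs that reached 2 numbered 44 without the highest PV nucleus of each GRE and 34 against other Gad nuclei. Among the 186 GREs with at least 300 UMIs the median was 1.98 and 93 reached 2. These values share the higher viral load of PV nuclei. In the SST gate the median fold over 287 GREs was 2.50, and in VIP, NPY and excitatory nuclei it was 0.928, 0.957 and 1.08. The study had picked the GREs for more ATAC-Seq signal in SST than in PV and VIP samples, so that few PV reads follow from the choice. Over all 287 the PV samples held 173 reads against 3474 in SST, with no PV read in 214. Of the 186 GREs, 34 had a higher mean in PV than in SST nuclei.

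The 5 GREs that the study called hits for SST had UMIs in PV nuclei, and no background level per GRE was set against them. The study also injected GRE12, GRE22 and GRE44 vectors singly and stained for PV protein. There a small fraction of the reporter-positive cells was PV-positive, which is another measure than UMIs in nuclei. The SST folds below use the SST gate, not the cell clusters of the study, so they differ from its values. GRE12 had a PV fold of 1.52 (1.15 to 1.98) and an SST fold of 9.36, GRE44 of 2.02 (1.75 to 2.32) and 9.39, GRE80 of 2.30 (2.04 to 2.58) and 12.1, GRE22 of 2.56 (2.18 to 2.97) and 12.2, and GRE19 of 2.75 (2.27 to 3.31) and 8.97. In mean UMIs per nucleus GRE22 stood at 0.318 in PV, 1.35 in SST and 0.118 in all other nuclei. All 5 stood lower in PV than in SST nuclei, with PV to SST ratios of 0.182 (GRE12) to 0.336 (GRE19). Relative to the 2.33-fold higher viral load, the 5 took shares of the viral UMIs in PV nuclei that were 0.692 (GRE12), 0.892 (GRE44), 1.01 (GRE80), 1.15 (GRE22) and 1.29 (GRE19) times those elsewhere.

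The highest PV folds, among GREs with at least 300 UMIs, were those of GRE9 (6.88), GRE11 (5.86), GRE220 (5.62), GRE74 (5.41) and GRE186 (4.61). Several rested on few nuclei. GRE9 came from 12 PV nuclei with 41.3% of its 109 UMIs in 1 of them and 82 UMIs on 1 of its 3 barcodes, and all 49 UMIs of GRE220 came from 1 barcode in 10 nuclei. Without their highest nucleus the 5 folds were 4.17, 4.04, 3.75, 4.78 and 2.99. GRE74 had the broadest base, with 221 UMIs in 38 PV nuclei and folds of 4.03, 2.75 and 6.59 for its 3 barcodes, and GRE186 was above 1 in 10 of 10 libraries. In PV and SST nuclei the mean UMIs were 0.445 and 0.234 for GRE74 and 0.0986 and 0.0275 for GRE220. Over all GREs the log2 folds of different barcodes of a GRE correlated weakly across 287 GREs, with Pearson's r from 0.135 to 0.291, and the points share nuclei and depth. Among the GREs with at least 300 UMIs, r was lower, from 0.0572 to 0.233. The lowest folds were 0.532 for GRE111, 0.569 for GRE42 and 0.602 for GRE232, from 3, 2 and 2 UMIs.

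**Figure D4:**
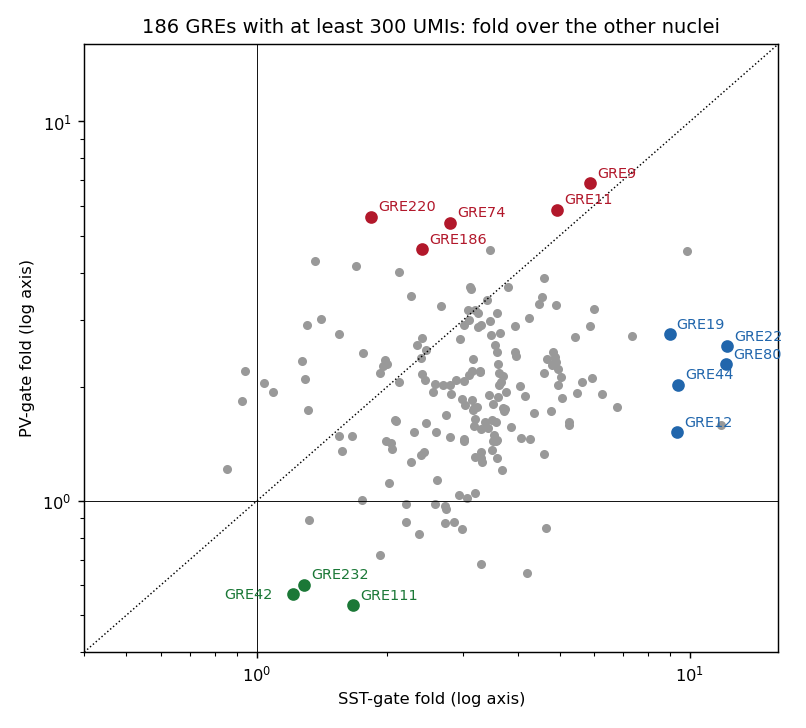
PV-gate fold against SST-gate fold (both log axes, pseudocount 0.01) for the 186 GREs with at least 300 UMIs, where the dotted line marks equal folds. GRE220, GRE74, GRE186, GRE9 and GRE11 have the highest PV folds and lie above the line, GRE12, GRE19, GRE22, GRE44 and GRE80 lie far below it at SST folds of 8.97 to 12.2, and GRE111, GRE42 and GRE232 are lowest.

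The sequences of GRE220 and GRE74 are shown because GRE220 had the highest PV to SST ratio of the 5 (2.90) and GRE74 the most PV nuclei. Central 300-base windows are given on the plus strand of GRCm38, chr5:52812449-52812748 for GRE220, in non-exonic sequence of Zcchc4, and chr3:42418128-42418427 for GRE74, which lies outside genes. Capitals mark matches to the homeodomain core TAATTA or the MEF2 consensus. These were searched together with AAGGTCA, the element of nuclear receptors of the estrogen-related receptor class (both strands), and the AP-1 element TGANTCA.
GRE220: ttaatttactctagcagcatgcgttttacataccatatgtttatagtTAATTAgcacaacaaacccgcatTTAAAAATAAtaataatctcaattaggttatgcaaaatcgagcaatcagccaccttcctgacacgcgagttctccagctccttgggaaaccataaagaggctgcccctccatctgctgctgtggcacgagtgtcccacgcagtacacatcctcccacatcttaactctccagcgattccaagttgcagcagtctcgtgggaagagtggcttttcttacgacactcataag
GRE74: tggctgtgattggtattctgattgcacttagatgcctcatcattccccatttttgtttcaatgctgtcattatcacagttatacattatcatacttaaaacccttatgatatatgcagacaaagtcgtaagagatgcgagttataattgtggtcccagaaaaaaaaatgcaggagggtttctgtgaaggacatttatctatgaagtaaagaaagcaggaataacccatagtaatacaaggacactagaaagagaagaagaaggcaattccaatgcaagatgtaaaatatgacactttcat
GRE220 held 1 TAATTA and 1 MEF2 match, and GRE74 held no match to any of the 4 motifs. A match is a description of the letters and not of a bound factor.

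Open chromatin of PV nuclei in the other mice served as a readout that the gate did not use. Samples held 1801883 to 2256073 reads in 323369 reference regions, of which 40338 passed the filter on low counts. On log2 values across regions, which are not independent, the PV samples correlated at 0.927 with each other, at 0.796 to 0.839 with SST samples and at 0.525 to 0.551 with VIP samples. At the marker loci, the regions in or within 10 kb of Pvalb summed to 47.3 and 64.4 CPM (counts scaled to library size) in PV, 32.2 and 29.8 in SST and 27.2 and 29.4 in VIP samples, and those of Vip to 1.39 and 1.55 in PV and 25.9 and 30.0 in VIP samples. The PV samples were thus highest at their own locus and low at that of VIP. The region at Neurod6, a gene of excitatory neurons, was higher in PV as well, with 32.0 and 26.4 against 18.6 and 15.5 in SST and 15.7 and 5.41 in VIP samples, while the regions of Slc17a7 held 72.2 to 81.6 in all 6 samples. The part of other cells in the results was not tested. In these bulk samples, more nuclei with an open region and a more open region per nucleus cannot be told apart.

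By edgeR's quasi-likelihood test of PV against the mean of SST and VIP, at an adjusted p under 0.05 after Benjamini-Hochberg, 6881 regions (17.1%) were higher and 4731 (11.7%) lower in PV. A region about as open in SST as in PV can be called higher by this contrast, so a call does not set PV apart from SST. The called region of Fam150b differed by 0.249 from SST and 1.64 from VIP on the log2 scale, and that of Ank1 by 2.07 and 3.11. In and within 10 kb of the 25 genes with the largest PV ratio lay 116 tested regions, of which 33 (28.4%) were higher and 5 (4.31%) lower. At the gene bodies alone it was 30 and 3 of 99. With DESeq2 in place of edgeR, 16 (13.8%) of the 116 were higher and 3 (2.59%) lower, beside 6.18% and 4.50% of all regions. Of the 25 genes, 13 had a higher and 5 a lower region, and Cox6a2 had no tested region. Of the same 116 regions, 15 (12.9%) were higher and 2 (1.72%) lower without PV replicate 1, beside 4.35% and 3.18% of all regions in that fit. Without PV replicate 2 it was 13 (11.2%) and 4 (3.45%), beside 6.76% and 3.55%. Without SST replicate 1 it was 36 (31.0%) and 11 (9.48%), beside 17.8% and 14.7%.

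Erbb4 and synapse adhesion genes had 27 higher and 4 lower of 93 regions, fast release and neurofilament genes 9 and 2 of 33, perineuronal net genes 10 and 1 of 38, and lineage transcription factors 18 and 3 of 76. The potassium channel list, whose transcripts were among the highest, had 12 higher and 6 lower of 86, a share of 13.9% that lay under the 17.1% of all regions. Kcnip1 alone supplied 32 of the 86, with 4 higher and 1 lower. No region was called at Kcnc1, Vamp1, Cplx1, Erbb4, Gad1 or Nefh. The higher regions of the fast release list lay at Syt2 (4), Syt1 (2), Nefm (2, with that of Nefl among them) and Snap25 (1). Of these genes only Syt2 was at least 2-fold higher in PV transcripts. Among further lists with members high in PV transcripts, mitochondria and energy genes had 6 higher and 7 lower of 43. All 6 of those higher regions lay at 1 gene, Esrrg, which had 21 regions, 4 of them lower. GABA genes had 3 and 4 of 32, GABA-A receptor genes 1 and 0 of 18, glutamate receptor genes 9 and 4 of 54, and sodium and calcium channel genes 12 and 5 of 67. Some lists low in PV transcripts also lay above the share of all regions, with 3 and 2 of 10 for oligodendrocyte precursor, 4 and 2 of 13 for microglial and 4 and 1 of 20 for oligodendrocyte genes. Excitatory genes had 5 and 5 of 36, astrocyte genes 2 and 0 of 16, vascular genes 1 and 2 of 10 and PV subtype genes 9 and 4 of 49. More regions were lower than higher at SST-list genes, with 2 higher and 11 lower of 34, at those of the caudal lineage, with 2 and 10 of 42, and at activity and stress genes, with 0 and 10 of 35, the rest of each list not being called. At the 10 genes lowest in PV nuclei, 3 of 18 regions were higher and 3 lower.

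Single regions gave large contrasts at Syt2, Ank1 and Pvalb. In an intron of Syt2, at chr1:134719364-134720555, the PV samples had 19.5 and 18.6 CPM, against 7.16 and 8.06 in SST and 1.36 and 0 in VIP, a log2 difference of 3.02 (SE 0.48, adjusted p = 0.000462 by edgeR). Most of it lay against VIP, with log2 differences of 1.27 from SST and 4.05 from VIP. PV samples lay above all others there, and at Ank1 too. An intron of Ank1, the ankyrin gene, had 38.9 and 35.7 in PV, 6.44 and 10.6 in SST and 4.77 and 3.00 in VIP, a log2 difference of 2.68 (SE 0.33, adjusted p = 9.35e-05 by edgeR).

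The intronic region of Pvalb at chr15:78195158-78196165 had 15.3 and 31.8 in PV, 5.01 and 4.96 in SST and 2.04 and 1.20 in VIP, a log2 difference of 3.01 (SE 0.44, adjusted p = 0.000244 by edgeR). As Pv-Cre chose these nuclei, that region checks the label. The start site of Tac1 gave a log2 difference of 1.34 (SE 0.40, adjusted p = 0.0179), most of it against VIP, since SST had 11.4 and 10.6 beside 13.2 and 15.5 in PV. An intronic region of Kcnc2 gave a log2 difference of 2.08 (SE 0.48, adjusted p = 0.00432). Tac1 and Kcnc2 passed in 5 and 6 of 10 settings, the regions of Syt2, Ank1 and Pvalb in 10 of 10.

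At Gjd2 and Gpr176, whose transcripts were high in PV nuclei, the called region with the lowest p was lower in PV. The start site of Gjd2 had 37.5 and 41.9 CPM in PV, 43.6 and 83.1 in SST and 85.8 and 112 in VIP, a log2 difference of -0.999 (SE 0.26, adjusted p = 0.00931 by edgeR), and the PV nuclei had the larger Gjd2 level, 1.57 against 0.453 in SST and 1.16 in VIP nuclei. It passed in 8 of 10 settings, but not without PV replicate 1 or without the filter on low counts, with an adjusted p of up to 0.111 by edgeR. The region upstream of Gpr176 differed by -1.13 (SE 0.21, adjusted p = 0.00114) and passed in 10 of 10, and of the 5 regions of Gpr176 another was higher in PV.

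**Figure D5:**
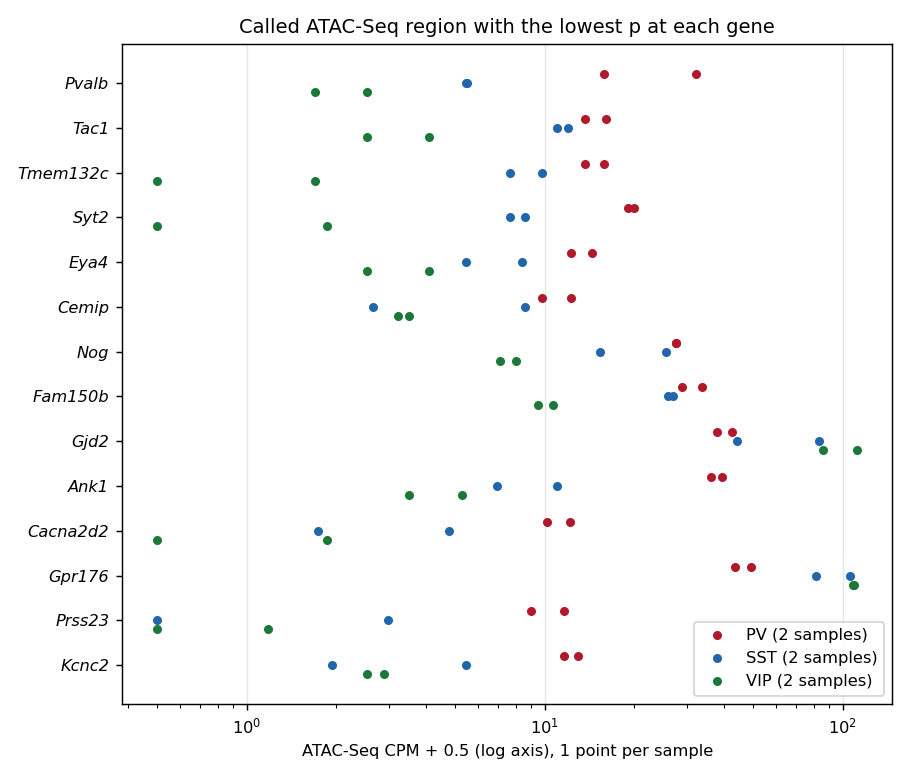
ATAC-Seq counts scaled to library size (CPM) plus 0.5 (log axis) in the called region with the lowest p at each of 14 genes, with 1 point per sample for PV, SST and VIP (2 samples each). PV points lie to the right of all others at Syt2, Ank1, Pvalb, Prss23 and Kcnc2, and to the left at Gjd2 and Gpr176.

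The regions of Pvalb and Syt2 are shown by their central 300 bases on the plus strand of GRCm38, because they carry the contrasts at the gene of the gate and at a leading transcript. The windows are chr15:78195511-78195810 for Pvalb and chr1:134719809-134720108 for Syt2, with motif matches in capitals as above.
Pvalb: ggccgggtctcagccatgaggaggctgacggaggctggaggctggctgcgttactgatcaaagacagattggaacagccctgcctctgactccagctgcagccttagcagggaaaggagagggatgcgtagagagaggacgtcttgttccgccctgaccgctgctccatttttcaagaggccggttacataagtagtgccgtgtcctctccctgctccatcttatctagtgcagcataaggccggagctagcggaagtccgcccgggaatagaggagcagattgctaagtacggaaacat
Syt2: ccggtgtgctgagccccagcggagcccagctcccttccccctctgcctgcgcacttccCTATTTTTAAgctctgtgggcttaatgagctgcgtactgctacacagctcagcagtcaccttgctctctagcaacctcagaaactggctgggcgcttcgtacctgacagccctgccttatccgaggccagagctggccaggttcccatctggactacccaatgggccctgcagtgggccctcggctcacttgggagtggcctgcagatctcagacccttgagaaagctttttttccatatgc
The Syt2 window held 1 MEF2 match, whereas the Pvalb window held none of the 4 motifs.

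Over all 40329 windows of 300 bases, AAGGTCA was found in 3.25%, in 5.67% of the 6880 windows higher in PV and in 1.65% of the 4729 lower ones. The MEF2 consensus, whose matches can share bases with TAATTA, was found in 2.63%, 4.43% and 1.61%, and TAATTA in 3.80%, 5.06% and 4.10%. TGANTCA differed little, with 11.0%, 12.6% and 11.2%. On both strands, TGCTGAC, the core of the MAF element, was found in 6.90%, 9.88% and 5.69%, and the octamer ATTTGCAT in 1.68%, 1.08% and 3.09%. The median GC content of the windows was 56.3% over all, 53.3% in those higher and 58.3% in those lower in PV, and its part in these shares was not tested. Esrrg, Esrra, Mef2c and Maf, which belong to families these elements are named for, had PV ratios of 5.15, 2.58, 0.811 and 4.43. The AP-1 genes Fos, Jun and Junb had 0.545, 0.370 and 0.283, and Fosb had 0.140 from 2 UMIs. Which factors bind these regions was not tested.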

How the data were processed

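For snRNA-Seq, the deposited counts are UMIs per gene and nucleus, which the authors made with the inDrops pipeline on GRCm38 with viral contigs added. They were not normalized. For ATAC-Seq, the authors trimmed reads (Trimmomatic 0.33), aligned them to mm10 (Subread 1.4.6-p3) and counted reads per region. Those deposited counts were not normalized either. Columns with the authors' own specificity values were not used.

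Nuclei with more than 200 UMIs outside the barcode columns numbered 32335 of 47348, as many as the methods state. A column of pooled viral reads (Vector) counted toward this cut but toward no total. Without it 31896 nuclei and the same 497 PV nuclei passed. Levels are summed UMIs per 10000 non-viral UMIs. Ratios carry exact conditional binomial 95% intervals and shares carry exact Clopper-Pearson intervals. Both cover counting error only. Calls need at least 50 UMIs and a ratio of 2 or more, or its inverse. A count of 0 was bounded at 3 UMIs. GRE folds sum 3 barcodes and add a pseudocount of 0.01.

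ATAC-Seq counts were tested with edgeR 4.0.16 in R 4.3.3 (quasi-likelihood, TMM, filterByExpr) over all 6 samples, PV against the mean of SST and VIP, with Benjamini-Hochberg at 5%. Tested on simulated data, in which 200 among 40338 regions were raised in PV by 2 on the log2 scale, it recovered 196 with 12 false calls. The simulated regions shared 1 spread and the unchanged ones had equal means, whereas 17.1% and 11.7% of the real regions were called. The error rate of the real calls was therefore not measured. DESeq2 1.42.0 was an alternative. The p-values measure the spread between 2 samples per driver. The remaining steps ran in python 3.11.15 (pandas 2.3.3, scipy 1.17.1).

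The gate, gene lists, settings and tests were chosen with earlier results of these data known. Named genes are those of the lists, the 25 highest and 10 lowest against all other nuclei, and the 10 highest and 10 lowest against other Gad nuclei. The ratio had to lie on the same side of 1 in 10 libraries, except for the lowest against other Gad nuclei, where this was not required. The minimum was 50 PV UMIs for the highest and 2 per 10000 in the comparison for the lowest. Named GREs are the 5 study hits and the 5 highest and 3 lowest GREs with at least 300 UMIs. ATAC-Seq regions are the called ones with the lowest p at the PV markers and the 25 highest genes. Sequences were read from GRCm38. The cut without the Vector column, the calls with intervals and each GRE without its highest PV nucleus were added after seeing the data. Some listed genes and 1 region are not reported here.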

Additional observations from a re-analysis of the deposited data

Results flagged for a closer look

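Among 31 quantities followed over the 10 libraries, 3 had a library set far apart from the others by Dixon's gap at the 95% level, where chance gives about 1 in 20. Mean viral UMIs per nucleus in the other kept nuclei were 7.23 in library 2-5, and the nearest library had 13.7. The PV level of Nog was 4.36 per 10000 in library 2-5, with 2.77 in the nearest library. The PV level of Cntnap4 was 5.86 in library 1-2, with 3.18 in the nearest.

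PV nuclei held 191 UMIs on the 303 viral barcode columns that are paired with no GRE and that no fold here uses. Barcodes with 200 or fewer UMIs, which the analysis leaves out, carried a mean of 8.43 viral UMIs, or 74.2 per 1000 non-viral UMIs, beside 26.2 per 1000 in PV nuclei.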

How the results depend on the processing

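Of the log2 ratios of named genes under single alternatives, 919 moved by less than the spread between libraries and 14 by more, none changing direction. Of the region counts at the 25 genes under single alternatives, 13 stayed within 1.5 times and 9 did not. The PV share was 0.764% with at least 2 Pvalb UMIs and 2.22% of nuclei with over 500 UMIs. Genes at least 2-fold higher than in all other and in other Gad nuclei numbered 1691 and 1636 after thinning to 300 UMIs, 1497 and 1460 with a minimum of 20 UMIs, and 575 and 429 with one of 200. The viral ratio was 1.48 per 1000 non-viral UMIs and 1.43 against other Gad nuclei. GREs with a PV fold of at least 2 numbered 62 with over 500 UMIs, 23 with a pseudocount of 0.1, 64 without the top 1% of nuclei, 44 without the highest PV nucleus of each GRE and 34 against other Gad nuclei. Leaving out 1 library at a time gave shares of 1.46 to 1.61%, 976 to 1006 and 863 to 941 higher genes, 299 to 366 genes above all 4 gates, viral ratios of 2.25 to 2.45 and 93 to 113 GREs. ATAC-Seq regions higher and lower in PV numbered 725 and 493 without the filter on low counts and 2494 and 1814 with DESeq2. Leaving out 1 sample gave 2408 to 10035 and 1759 to 8280, where the samples that moved the counts most were PV replicate 1 (2408 and 1759), PV replicate 2 (3683 and 1933) and SST replicate 1 (10035 and 8280). The cause was not tested.

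With the replicate number as a block, 6644 regions were higher and 4393 lower. Same-numbered samples did not deviate together, with correlations from -0.0366 to 0.0297, so the numbers were not taken as pairs.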
